A study of Mus musculus with 15 samples.

Results

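The SLAM family receptors were followed in sorted mouse XCR1+ dendritic cells (DCs) of thymus and spleen. The family was taken as 9 gene symbols (Cd244a, Slamf1, Slamf6, Slamf7, Slamf8, Slamf9, Cd84, Ly9 and Cd48), and 15 of the 45101 probe sets of the array carried exactly 1 of them. The probe set that stands for a gene was chosen by its measured signal, as the one of highest average across the 15 arrays, and no comparison between groups entered that choice. For the 4 genes with several probe sets the one used and the next averaged 8.16 and 5.36 (Cd244a), 6.13 and 5.13 (Slamf1), 7.18 and 6.07 (Slamf6) and 5.33 and 4.27 (Cd84). All 9 genes passed the filter on low values and were among the 13629 genes tested. The study compared 5 groups of 3 arrays. These were thymus CCR7+ and thymus CCR7- cells of untreated mice, spleen CCR7+ cells of mice given 10 µg polyI:C intraperitoneally 18 h before harvest, and spleen CCR7+ and spleen CCR7- cells of untreated mice. All groups were gated as CD11c+, CD317- and CD172a-, with CD117- CCR7+ for mature and CD117+ CCR7- for immature cells, and XCR1 stands in the sample names without being among the gates. Strain, age and the number of animals behind each array are not stated in the labels, so that p-values measure only the spread between these arrays. CCR7- cells of polyI:C-treated mice were not among the groups, so that maturation and treatment cannot be told apart in those comparisons. All spleen titles carry the mark LT_SetA, which the labels do not explain, and no thymus title does. Tissue and whatever that mark stands for therefore cannot be told apart.

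SLAM receptors are immunoglobulin superfamily proteins of blood cells that mostly bind a copy of themselves on a neighbouring cell. The exceptions are 2B4, the product of Cd244a, and CD48, a lipid-anchored protein, which bind each other, and mouse CD48 also binds CD2. Most of the family signal through tyrosine motifs in the cytoplasmic tail that recruit the small adaptors SAP (Sh2d1a) and EAT-2, or inhibitory phosphatases such as SHIP1 (Inpp5d) and SHP-1 (Ptpn6). SLAMF8 and SLAMF9 have short tails without these motifs. The receptors are best known for contacts between T cells, B cells, NK cells and antigen-presenting cells.

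Signal of other cells was uneven across the groups, and it bears on a family that lymphocytes also express. Transcripts of T cells were higher in thymus CCR7+ cells. Over 6 T cell markers the array means were 6.12 to 7.50 on the log2 scale in thymus CCR7+ cells. They were 5.13 to 5.65 in thymus CCR7- cells and 4.80 to 5.20 over the spleen arrays. In thymus 4 of the 6 were called higher in CCR7+ cells, against 16.8% of all genes. B cell markers (4 genes) ran from 6.90 to 8.10 in untreated spleen CCR7+ cells and from 5.80 to 6.21 in spleen CCR7- cells. The list of CD172a+ DCs, monocytes and macrophages (6 genes) ran from 5.65 to 6.19 in thymus CCR7+ against 6.64 to 6.88 in thymus CCR7- arrays. In the spleen that list ran from 5.43 to 6.39 after polyI:C and from 6.35 to 7.0 in untreated CCR7+ cells, against 7.11 to 7.68 in CCR7- cells. Itgam, 1 of its genes, was below the filter value of 4.39 on every array, while Csf1r and Lyz2 were above it on all. The NK cell list (4 genes) ran from 5.52 to 5.64 after polyI:C, against 4.85 to 4.89 in untreated CCR7+ and 4.98 to 5.19 in spleen CCR7- cells. Within it Ncr1 was below the filter value on every array, and Klrk1 averaged 8.02 after polyI:C against 5.83 in untreated CCR7+ cells. Of 10 genes of XCR1+ DCs, 6 were called lower and 2 higher in thymus CCR7+ cells, and 8 lower and 2 higher in untreated spleen CCR7+ cells. Of all genes tested 20.4% were lower and 16.8% higher in thymus, and 24.1% and 12.3% in untreated spleen. Among the 10 genes Xcr1 averaged 5.25 in thymus CCR7+ and 11.40 in thymus CCR7- cells. Batf3 averaged 10.18 and 9.25 and Ly75 10.09 and 9.19 in the same order of groups. In the spleen Xcr1 averaged 7.54 after polyI:C, 8.03 in untreated CCR7+ and 11.58 in CCR7- cells. In bulk samples fewer cells of a type and less RNA per cell cannot be told apart. Spleen CCR7+ array 1 had the lowest mean correlation with its own group of all arrays (r = 0.964) and the lowest Xcr1 signal of its group (6.16).

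Cd244a and Slamf8 were high in CCR7- cells of both tissues and lost most of their signal in CCR7+ cells. By the probe sets used, the fitted loss was largest in the thymus. The thymic change was not tested against that after polyI:C, and for Slamf8 its difference from the untreated spleen change was not called. Cd244a encodes 2B4, the receptor for CD48 known mainly from NK cells and CD8 T cells. It had 4.34, 3.96 and 3.97 in thymus CCR7+ cells, against 10.35, 10.17 and 10.48 in thymus CCR7- cells. In the spleen it had 7.36, 7.24 and 4.21 after polyI:C and 8.51, 9.55 and 9.22 in untreated CCR7+ cells, against 10.78, 11.05 and 11.15 in CCR7- cells. All values are log2 RMA signals, and no array of a CCR7+ group reached the range of the CCR7- cells of its tissue. The thymus CCR7+ arrays and the third polyI:C array lay below the filter value of 4.39, and RMA gives no detection call to tell such a signal from none. The fitted log2 fold change was -6.24 in thymus (SE 0.59, adjusted p = 1.4e-06, limma). With the thymus CCR7+ arrays set to the filter value, a choice made after their values were seen, the difference was -5.95, so that the gene was at least 61.8-fold lower against that value. The second, dimmer probe set gave -2.09. In untreated spleen the fitted change was -1.90 (SE 0.59, adjusted p = 0.021) and after polyI:C -4.73 (SE 0.59, adjusted p = 1.3e-05), where the second probe set gave -1.86 and -2.43. The second probe set thus fell most after polyI:C, but its thymus CCR7+ mean of 4.10 was below the filter value. It could therefore not have shown a deeper thymic fall. The untreated spleen call was lost without spleen CCR7+ replicate 1 (-1.61), spleen CCR7- replicate 2 (-1.87) or spleen CCR7- replicate 3 (-1.82). Without polyI:C replicate 3, the array with 4.21, the polyI:C change was -3.69.

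Slamf8, a receptor of macrophages and DCs that in mouse macrophages restrains the phagocyte oxidase, followed the same order of groups. It had 4.76, 4.56 and 5.36 in thymus CCR7+ cells, against 11.14, 10.59 and 10.86 in thymus CCR7- cells. In the spleen it had 6.99, 7.53 and 5.53 after polyI:C and 6.85, 9.07 and 8.26 in untreated CCR7+ cells, against 11.36, 11.32 and 11.32 in CCR7- cells. The CCR7- arrays were tightly grouped, whereas untreated spleen CCR7+ arrays spread over more than 2 log2 units and overlapped those of polyI:C. Changes were -5.97 in thymus (SE 0.51, adjusted p = 4.9e-07), -3.28 in untreated spleen (adjusted p = 0.00019) and -4.65 after polyI:C (adjusted p = 3.6e-06). Without spleen CCR7+ array 1 the untreated spleen change was -2.67 and remained called. Across the 15 arrays Cd244a and Slamf8 correlated with r = 0.957, a description in which the group differences shared by all arrays enter. The CD172a+ DC, monocyte and macrophage list had a median change of -0.69 in thymus, -0.82 in untreated spleen and -1.54 after polyI:C. Of its 5 tested genes 1, 2 and 3 were called lower, against 20.4%, 24.1% and 28% of all genes. The part of this list in the Slamf8 result was not tested.

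**Figure D1:**
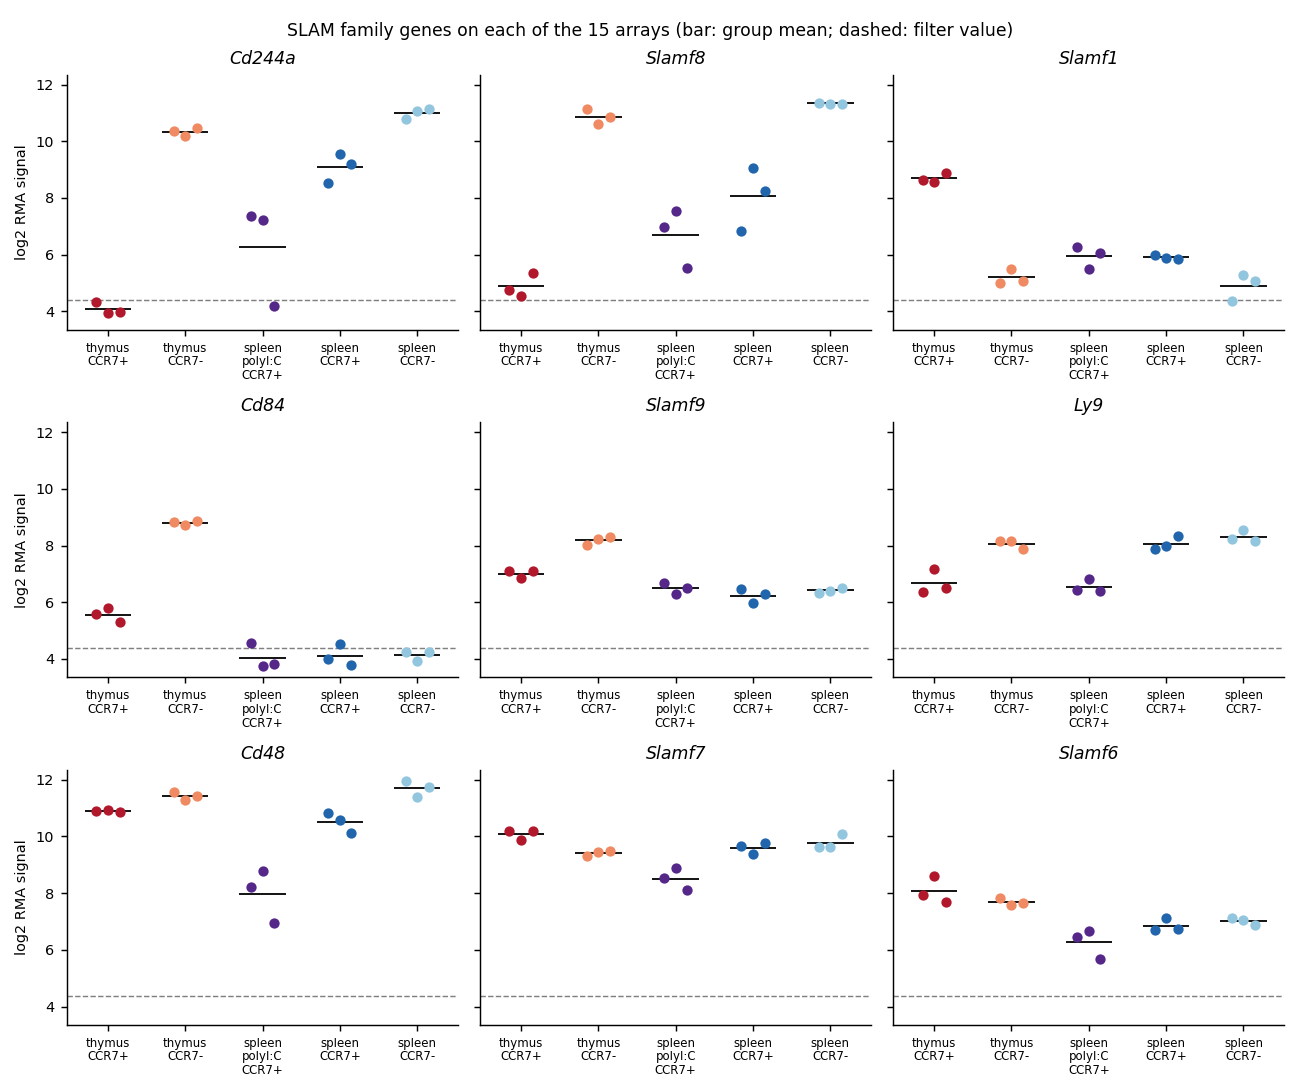
Each panel plots 1 SLAM family gene, with a point for each array (log2 RMA signal), a bar for the mean of the 3 arrays of a group and a dashed line at the filter value of 4.39. Cd244a and Slamf8 are highest in CCR7- cells, Slamf1 is highest in thymus CCR7+ cells (8.56 to 8.88) and Cd84 in thymus CCR7- cells (8.72 to 8.86).

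Slamf1 ran the opposite way and was highest in mature thymic cells. It encodes CD150, a self-binding receptor of activated T cells, B cells and antigen-presenting cells that pairs with SAP. Its signal was 8.64, 8.56 and 8.88 in thymus CCR7+ cells, against 5.01, 5.50 and 5.08 in thymus CCR7- cells. In the spleen it was 6.28, 5.50 and 6.07 after polyI:C and 5.99, 5.90 and 5.86 in untreated CCR7+ cells, against 4.38, 5.29 and 5.06 in CCR7- cells. Every CCR7+ array exceeded every CCR7- array of its tissue, and the thymus CCR7+ arrays stood above all others. Slamf1 rose by 3.49 in thymus (SE 0.24, adjusted p = 6.0e-08), an 11.3-fold difference, by 1.01 in untreated spleen (adjusted p = 0.0040) and by 1.04 after polyI:C (adjusted p = 0.0022). Its other 2 probe sets changed by 1.71 and 1.87 in thymus, by 0.36 and 0.42 in the untreated spleen, and by 0.41 and 0.22 after polyI:C. All 3 thus had the same direction, although 1 of them exceeded the filter value on a single array.

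T cell transcripts were higher in the same thymus CCR7+ cells. The 6 T cell markers averaged 6.37, 7.50 and 6.12 on the arrays where Slamf1 had 8.64, 8.56 and 8.88, Slamf6 7.94, 8.60 and 7.69, and Ly9 6.37, 7.16 and 6.51. In untreated spleen CCR7+ cells 0 of the 6 markers were called (36.5% of all genes), while Cd2, which is not on that list, was called higher (1.46). Of the 4 B cell markers, 2 were called higher in thymus CCR7+ cells (16.8% of all genes) and 3 in untreated spleen CCR7+ cells (12.3%). Their array means were 5.70 to 7.31 in thymus CCR7+ against 5.19 to 5.62 in thymus CCR7- cells. The part of T cell or B cell RNA in these values was not tested.

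Promoter sequences are shown for the 3 genes that changed in the same direction in every comparison of CCR7+ with CCR7- cells, Cd244a and Slamf8 as falling genes and Slamf1 as the rising one. They are from RefSeq, build GRCm38.p6, and hold 250 bases before and 50 after the start of the gene, 5′ to 3′ on the gene's strand. Capitals mark matches to TGANTCA, the AP-1 core bound by JUN, FOS and BATF proteins.
Cd244a, chr1:171558943-171559242, plus strand: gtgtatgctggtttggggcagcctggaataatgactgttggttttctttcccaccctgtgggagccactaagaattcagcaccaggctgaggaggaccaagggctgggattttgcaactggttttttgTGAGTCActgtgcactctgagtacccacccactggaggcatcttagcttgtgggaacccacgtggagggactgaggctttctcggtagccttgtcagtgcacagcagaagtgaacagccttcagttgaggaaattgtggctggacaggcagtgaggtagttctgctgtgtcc
Slamf8, chr1:172590519-172590818, minus strand: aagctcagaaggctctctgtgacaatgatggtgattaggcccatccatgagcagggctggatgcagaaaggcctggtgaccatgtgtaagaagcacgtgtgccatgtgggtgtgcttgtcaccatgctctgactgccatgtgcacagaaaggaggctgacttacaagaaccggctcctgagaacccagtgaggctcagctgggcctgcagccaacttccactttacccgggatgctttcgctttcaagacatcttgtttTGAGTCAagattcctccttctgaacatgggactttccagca
Slamf1, chr1:171766882-171767181, plus strand: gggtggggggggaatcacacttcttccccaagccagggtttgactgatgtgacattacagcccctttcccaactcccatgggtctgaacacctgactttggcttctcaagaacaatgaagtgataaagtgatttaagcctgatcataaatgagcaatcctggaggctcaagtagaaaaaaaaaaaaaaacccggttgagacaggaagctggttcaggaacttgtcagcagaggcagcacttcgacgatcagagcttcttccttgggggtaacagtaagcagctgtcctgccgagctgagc

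The Cd244a and Slamf8 windows each held 1 match to TGANTCA, starting at base 129 and base 260, and the Slamf1 window held none. Of the 8 family members with a promoter in the table, 4 (Cd244a, Slamf7, Slamf8 and Cd84) had a match on either strand, against 7.81% of all 32851 promoters of the same length. These 4 genes did not share a direction, since Slamf7 was called higher in thymus CCR7+ cells and the others lower. Slamf8 also held 1 match each to an interferon regulatory factor motif of GAAA repeated after any 2 bases (3.44% of all promoters) and to an NF-kB motif of GGGA and TTCC with any 2 bases between them (1.47%), which no other member with a promoter had. CACGTG, the E-box, was found once each in Cd244a, Slamf8 and Slamf9 (7.15% of all promoters), and GAGGAAGT, the PU.1 motif, once in Slamf9 (3.20%). TGACGTCA, the cyclic AMP response element, was in no member's window (1.79% of all promoters). Both strands were searched, no matches of different motifs overlapped in the members, and the motifs were chosen with the sequences in view. A match is a description of letters and not a bound site.

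Cd84 was a thymic transcript in these cells and fell with maturation there. It encodes a self-binding receptor of many blood cells that takes part in T cell and B cell contacts. Its signal was 5.58, 5.80 and 5.31 in thymus CCR7+ cells, against 8.84, 8.72 and 8.86 in thymus CCR7- cells. The spleen arrays ran from 3.76 to 4.55 in all 3 groups, and 2 of the 9 exceeded the filter value, so that Cd84 was tested because of its thymic signal. The thymic groups did not overlap with each other or with any spleen group. Cd84 fell in thymus by 3.24 on the log2 scale (SE 0.23, adjusted p = 8.7e-08). In spleen it was -0.04 in untreated (95% interval -0.53 to 0.45) and -0.11 in polyI:C cells (-0.60 to 0.38), where the signal was too near the lower end of the scale for a fall to be seen. The second probe set also gave a lower thymic level in CCR7+ cells (-1.70).

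Slamf9 resembled Cd84 over the arrays (r = 0.959) and fell in the thymus by 1.17 on the log2 scale (SE 0.16, adjusted p = 3.7e-05). SLAMF9 is a short-tailed family member known from macrophages and plasmacytoid DCs. It had 7.10, 6.84 and 7.09 in thymus CCR7+ cells, against 8.02, 8.22 and 8.30 in thymus CCR7- cells. In the spleen the 9 arrays lay between 5.96 and 6.69 with no order of the groups, and the changes of -0.18 (95% interval -0.52 to 0.15) in untreated and 0.08 (-0.25 to 0.42) in polyI:C cells were not called. The plasmacytoid DC list of 6 genes had 1 gene called lower and none higher in thymus, against 20.4% and 16.8% of all genes. Its array means were 6.76 to 7.61 in CCR7+ and 7.23 to 7.65 in CCR7- cells. Its part was not tested.

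Cd48, the ligand of 2B4, and Ly9, a self-binding receptor of lymphocytes, fell after polyI:C, and Ly9 fell in thymus too. Cd48 had 8.22, 8.77 and 6.93 after polyI:C and 10.82, 10.58 and 10.11 in untreated spleen CCR7+ cells, against 11.94, 11.40 and 11.74 in spleen CCR7- cells. The polyI:C arrays lay below all 12 others. In the thymus Cd48 had 10.91, 10.93 and 10.86 in CCR7+ against 11.57, 11.27 and 11.42 in CCR7- cells. These did not overlap, but the change of -0.52 was not called (95% interval -1.26 to 0.21, adjusted p = 0.27), while a model of just these 6 arrays called it (adjusted p = 0.012). It fell by 3.72 after polyI:C (SE 0.34, adjusted p = 7.3e-07) and by 1.19 in untreated spleen (adjusted p = 0.013), and the call in untreated spleen was lost without spleen CCR7- replicate 1 (-1.06) or spleen CCR7+ replicate 3 (-0.99).

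Ly9 had 6.37, 7.16 and 6.51 in thymus CCR7+ cells, against 8.14, 8.18 and 7.88 in thymus CCR7- cells. In the spleen its signal was 6.42, 6.84 and 6.39 after polyI:C and 7.89, 7.97 and 8.32 in untreated CCR7+ cells, against 8.22, 8.56 and 8.15 in CCR7- cells. Untreated spleen CCR7+ and CCR7- arrays overlapped, and both other CCR7+ groups lay below them. Ly9 fell by 1.39 in thymus (SE 0.21, adjusted p = 0.00012) and by 1.76 after polyI:C (adjusted p = 9.0e-06), and the untreated spleen change of -0.25 was not called (95% interval -0.70 to 0.21).

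Slamf7 rose in thymus and fell after polyI:C, and Slamf6 fell after polyI:C. SLAMF7 (CRACC) is a self-binding receptor of NK cells, plasma cells and DCs that uses EAT-2. It had 10.19, 9.87 and 10.19 in thymus CCR7+ cells, against 9.30, 9.46 and 9.49 in thymus CCR7- cells. In the spleen it had 8.53, 8.88 and 8.10 after polyI:C and 9.64, 9.37 and 9.75 in untreated CCR7+ cells, against 9.64, 9.62 and 10.08 in CCR7- cells. The thymic groups did not overlap, nor did polyI:C and either other spleen group. Slamf7 rose by 0.67 in thymus (SE 0.20, adjusted p = 0.014) and fell by 1.28 after polyI:C (adjusted p = 8.6e-05). The thymic call was lost without thymus CCR7- replicate 1 (0.61) and without thymus CCR7+ replicate 1 (0.61) or 3 (0.61). In untreated spleen the change was -0.19 (95% interval -0.61 to 0.23, not called).

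Slamf6, the self-binding receptor Ly108 of T, B and NK cells, had 7.94, 8.60 and 7.69 in thymus CCR7+ cells, against 7.84, 7.59 and 7.66 in thymus CCR7- cells. In the spleen it had 6.45, 6.66 and 5.68 after polyI:C and 6.71, 7.11 and 6.74 in untreated CCR7+ cells, against 7.11, 7.07 and 6.87 in CCR7- cells. The thymic groups overlapped and so did the untreated spleen groups. The only called change was that after polyI:C (-0.75, SE 0.25, adjusted p = 0.025). It was no longer called without polyI:C replicate 3 (-0.46), without spleen CCR7- replicate 1 (-0.70) or 2 (-0.73), or with the mean of its 3 probe sets (-0.23, adjusted p = 0.31).

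Counted together, 7 of the 9 genes were called in thymus where 37.3% of all genes tested were called. Of these 2 were higher, against 16.8% of all genes, and 5 lower, against 20.4%. In untreated spleen 4 of 9 were called against 36.5% of all genes, 1 higher (12.3% of all genes) and 3 lower (24.1%). After polyI:C 7 of 9 were called against 46.4%, 1 higher (18.4%) and 6 lower (28%). CCR7+ and CCR7- arrays did not overlap for 8 of the 9 genes in thymus, against 50.4% of all genes, for 4 in untreated spleen, against 43%, and for 7 after polyI:C, against 57.2%. The spleen count is near the share of all genes. The median change of the 9 genes was -1.17 in thymus, -1.28 after polyI:C and -0.19 in untreated spleen, and that of all genes tested was -0.06, 0.02 and -0.03. The comparisons after polyI:C and in untreated spleen share their CCR7- arrays.

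**Figure D2:**
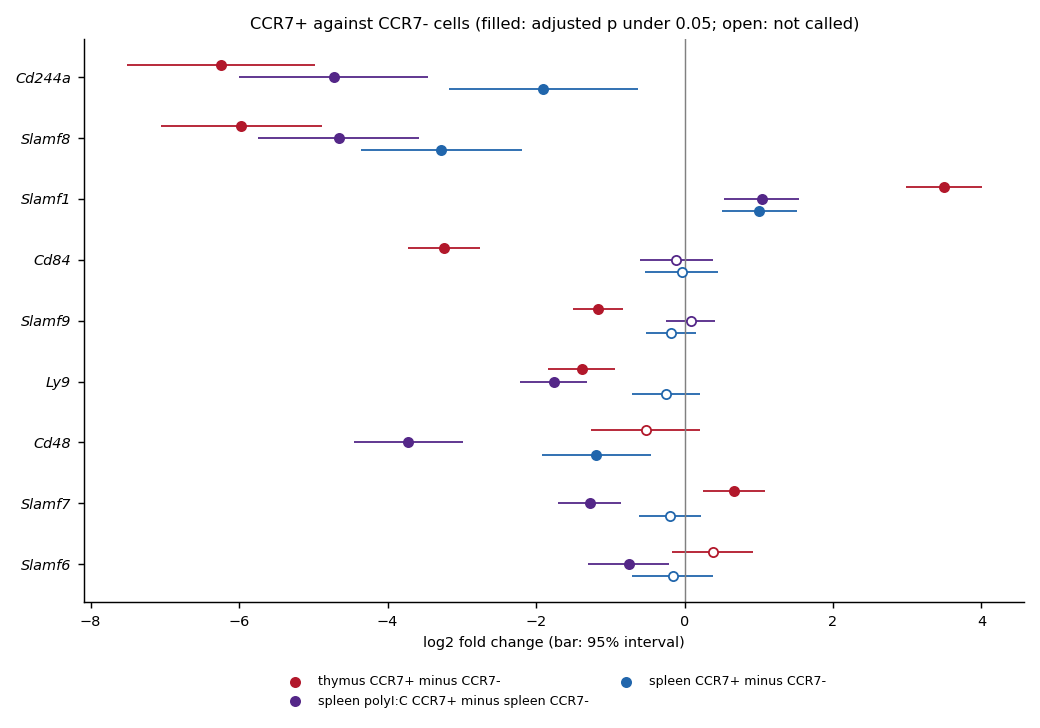
The horizontal axis gives log2 fold changes of CCR7+ against CCR7- cells for the 9 genes, with bars for 95% intervals, filled points for genes called at an adjusted p under 0.05 and open points for the rest. Cd244a, Slamf8 and Slamf1 are filled in all 3 comparisons, the first 2 to the left and Slamf1 to the right of 0.

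PolyI:C itself was set against homeostatic maturation by comparing the CCR7+ cells of the spleen. Cd244a (-2.83, SE 0.59, adjusted p = 0.0041), Cd48 (-2.53, SE 0.34, adjusted p = 0.00015), Ly9 (-1.52, adjusted p = 0.00020) and Slamf7 (-1.09, adjusted p = 0.0014) were lower after polyI:C. No gene of the family was higher. The count of 4 of 9 stood against 18.2% of all genes (9.66% lower, 8.58% higher), and the arrays of 5 of 9 genes did not overlap, against 27.3% of all genes. The second Cd244a probe set gave -0.57. The transcripts of 2B4 and of its ligand CD48 were thus both lower in CCR7+ cells after polyI:C. Without polyI:C replicate 3 the changes were -1.79 for Cd244a and -2.01 for Cd48, and both stayed called. In a model of just these 6 arrays Cd244a was not called (-2.83, adjusted p = 0.077). Slamf8 had a change of -1.38 (95% interval -2.46 to -0.29, adjusted p = 0.076), and Slamf1 one of 0.03 (-0.48 to 0.54). Slamf8 was called without spleen CCR7+ replicate 1 (-1.98) and without polyI:C replicate 2 (-1.80). The B cell markers were called lower after polyI:C in 2 of 4 cases, against 9.66% of all genes. Their array means were 5.78 to 6.42 after polyI:C against 6.90 to 8.10 in untreated CCR7+ cells. The part of B cell RNA in the falls of the family was not tested.

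Mature cells of thymus and untreated spleen differed in most of the family, and immature cells in Cd84 and Slamf9. In both comparisons tissue coincides with the LT_SetA mark of the spleen titles. Between CCR7+ cells, 7 of 9 genes were called where 12.2% of all genes were, 4 higher in thymus (8.71% of all genes) and 3 lower (3.47%). The 7 include Cd84, which passed the filter only through its thymus arrays. The arrays of all 9 genes did not overlap, against 26.2% of all genes. Slamf1 (2.78, SE 0.24, adjusted p = 3.8e-06), Cd84 (1.46, adjusted p = 0.00073), Slamf6 (1.22, adjusted p = 0.0058) and Slamf9 (0.78, adjusted p = 0.0047) were higher in thymus. Cd244a (-5.00, SE 0.59, adjusted p = 7.2e-05), Slamf8 (-3.16, adjusted p = 0.00085) and Ly9 (-1.38, adjusted p = 0.00061) were lower. The thymus side of Cd244a and the spleen side of Cd84 averaged below the filter value, and with such arrays set to it the differences were -4.71 and 1.13. Other probe sets gave smaller differences, of -0.97 for Cd244a, 1.52 and 1.61 for Slamf1, 0.09 for Cd84, and 0.66 and 0.13 for Slamf6. The second Cd244a probe set averaged 4.10 in thymus, and that of Cd84 3.96 in thymus and 3.87 in spleen, all below the filter value. T cell markers were called higher in thymus CCR7+ cells in 5 of 6 cases (8.71% of all genes), and their part in the Slamf1 and Slamf6 differences was not tested. For Slamf7 the difference was 0.50 (95% interval 0.07 to 0.92, adjusted p = 0.12) and for Cd48 0.40 (-0.34 to 1.13).

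Between CCR7- cells 2 of 9 genes were called where 8.16% of all genes were, both higher in thymus (4.92% of all genes) and none lower (3.24%). Cd84, 1 of the 2, passed the filter only through its thymus arrays. The arrays of 6 of 9 genes did not overlap, against 25.9% of all genes. Cd84 was higher in thymus, with a fitted difference of 4.66 (SE 0.23, adjusted p = 1.1e-08). All 3 spleen CCR7- arrays were below the filter value, and against that value Cd84 was at least 21.4-fold higher in thymus (4.42). Its second probe set gave 1.82. Slamf9 was higher by 1.76 (SE 0.16, adjusted p = 4.8e-06). Cd244a (-0.66, 95% interval -1.93 to 0.61) and Slamf8 (-0.47, -1.55 to 0.62) were not called, nor were the remaining 5 genes.

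**Figure D3:**
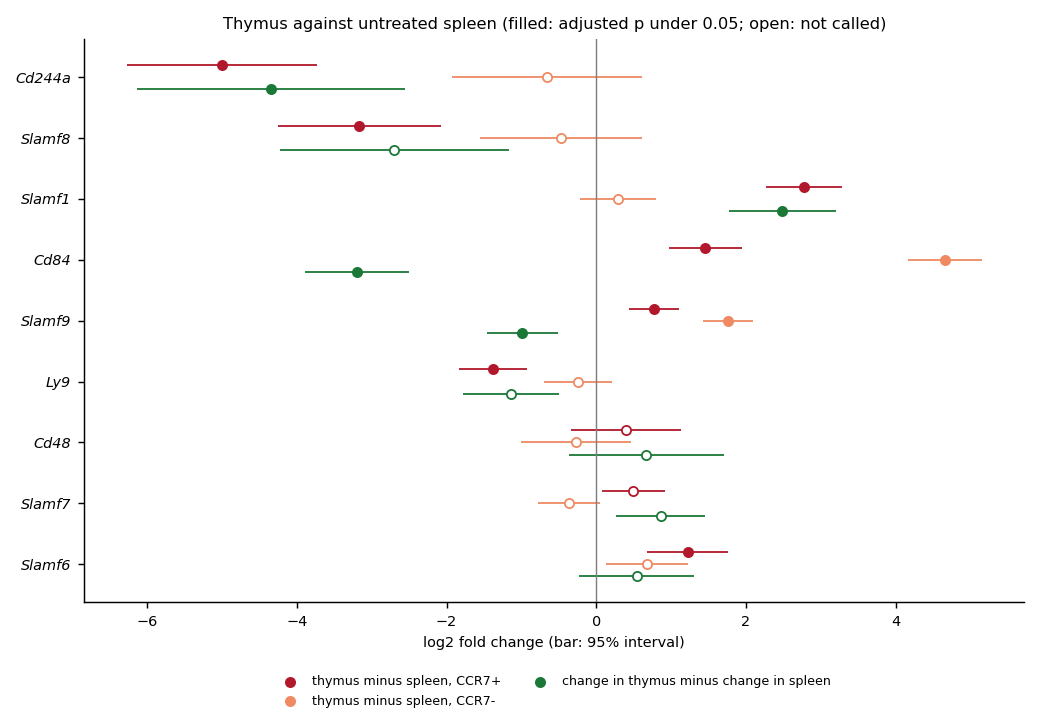
The horizontal axis gives log2 differences between thymus and untreated spleen for CCR7+ and for CCR7- cells, and the maturation change in thymus minus that in spleen, with bars for 95% intervals and filled points for genes called. Cd84 is filled in all 3, and Slamf1 is filled and to the right of 0 for CCR7+ cells and for the difference of changes.

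The tissues were also compared in how far maturation moved each gene, as the interaction of tissue and maturation. Of the 9 genes 4 were called, against 3.18% of all genes, 1 with a higher change in thymus (1.79% of all genes) and 3 with a lower one (1.39%). The 4 include Cd84, which passed the filter only through its thymus arrays. Cd244a fell further in thymus (difference of changes -4.34, SE 0.84, adjusted p = 0.0098), as did Slamf9 (-0.99, SE 0.22, adjusted p = 0.026). Cd84 is the third gene with a lower change (-3.20, SE 0.32, adjusted p = 8.7e-05), but its spleen CCR7- arrays were all below the filter value, so that no fall in the spleen could have been seen and the value says nothing of one. With the thymus CCR7+ arrays of Cd244a set to the filter value its difference was -4.05. The Slamf9 call was lost without any 1 of 6 arrays (-0.98 to -0.90), which were thymus CCR7+ replicate 2, thymus CCR7- replicates 2 and 3, spleen CCR7+ replicate 3 and spleen CCR7- replicates 1 and 2. Slamf1 rose further in thymus (2.49, SE 0.33, adjusted p = 0.00076). The other Cd244a probe set, whose mean was 5.36 against 8.16 for the one used, gave a difference of -0.23. It fell by similar amounts in thymus (-2.09) and untreated spleen (-1.86), with CCR7+ means of 4.10 and 5.07 against CCR7- means of 6.19 and 6.94. The thymus CCR7+ mean of 4.10 was below the filter value, so that this probe set could not have shown a deeper thymic fall. The tissue difference of Cd244a thus rests on the brighter probe set, and the dimmer one cannot decide it. Slamf8 (-2.70, 95% interval -4.23 to -1.16, adjusted p = 0.059) and Ly9 (-1.14, -1.78 to -0.50, adjusted p = 0.057) were not called. Slamf8 was called without spleen CCR7+ replicate 1 (-3.30), and Ly9 without thymus CCR7+ replicate 2 (-1.38). Slamf8 was also called without polyI:C replicate 2 or 3. Those arrays are not part of this comparison, so that its value stayed at -2.70 and only the shared variance moved.

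**Figure D4:**
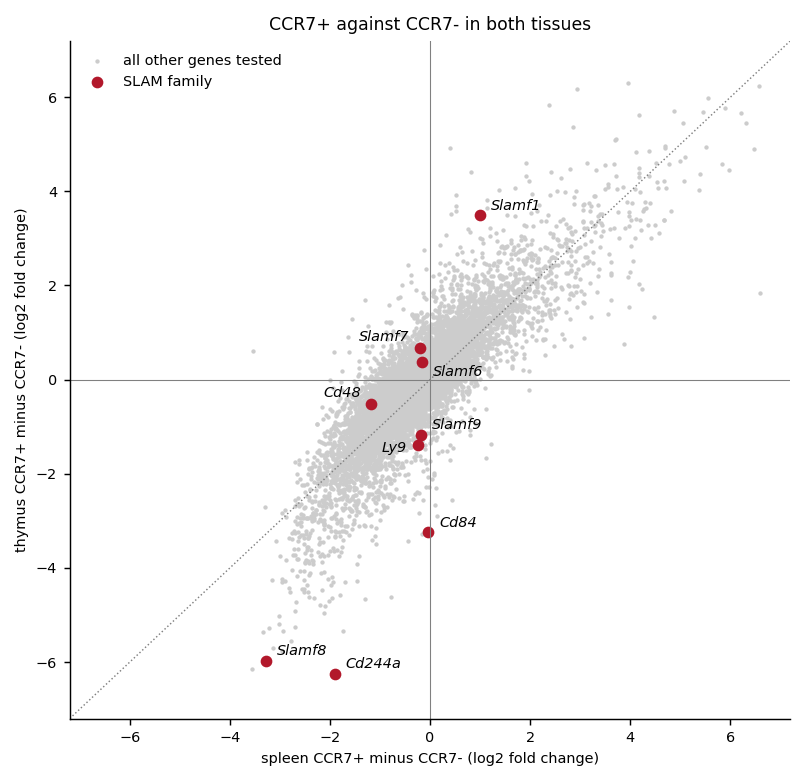
Each point is 1 of the 13629 genes tested, placed by its log2 change of CCR7+ against CCR7- cells in untreated spleen (horizontal axis) and in thymus (vertical axis), with the 9 SLAM family genes in red and a dotted line of equal change. Cd244a lies at -6.24 and Slamf8 at -5.97 on the vertical axis. The thymus CCR7+ arrays of Cd244a and 7 of the 9 spleen arrays of Cd84 were below the filter value.

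Genes that SLAM receptors bind or signal through changed in part and in both directions. Of 34 listed partners 29 had a probe set and were tested. In thymus 9 were called higher and 7 lower, in untreated spleen 5 and 9, and after polyI:C 5 and 11, with medians of 0.16, 0.02 and -0.03. All genes tested were called in 37.3%, 36.5% and 46.4% of cases. Inpp5d, the inositol phosphatase SHIP1, changed by -2.47 in thymus (adjusted p = 0.00040), -2.30 in untreated spleen (adjusted p = 0.00089) and -3.06 after polyI:C (adjusted p = 4.5e-05), which was the largest fall of the list in each. The kinase Src showed the largest rise in each, of 3.29, 4.49 and 4.25. Ptpn6 (SHP-1) was not called in any of these (0.24, 0.09 and 0.42). Fyn, the kinase that SAP brings to SLAM receptors, was not called in thymus (0.00, 95% interval -0.50 to 0.50) and was lower in untreated spleen (-0.63) and after polyI:C (-0.60).

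The SAP gene Sh2d1a was highest in thymus CCR7+ cells, where T cell transcripts were highest too. It had 7.47, 8.30 and 6.65 in thymus CCR7+ cells, against 4.64, 5.52 and 4.83 in thymus CCR7- cells, and its spleen arrays lay between 3.61 and 4.60. Its spleen group means were all below the filter value, so that it was tested because of its thymic signal. It rose by 2.48 in thymus (SE 0.35, adjusted p = 6.1e-05). The interaction was 2.10 (adjusted p = 0.034), with both of its spleen means below that value. The 6 T cell markers averaged 6.37, 7.50 and 6.12 on the same thymus CCR7+ arrays, in the same order as Sh2d1a. Not every marker had that order. Cd3g, a T cell receptor chain, had 8.80, 9.83 and 7.91, whereas Cd3e (4.95, 5.61 and 5.21) and Lat (6.36, 7.44 and 6.61) were lowest on the first array. Cd2 rose by 1.67 in thymus and 1.46 in untreated spleen (adjusted p = 0.0070 and 0.017), and had 5.99, 7.25 and 5.66 on the thymus CCR7+ arrays. What T cell or B cell RNA adds to Sh2d1a or Cd2 was not tested. Between the CCR7+ cells of the spleen 1 of the 29 partners was called, against 18.2% of all genes, which was Plcg2, a phospholipase gene, lower after polyI:C (-1.03). Between CCR7+ cells of the tissues 2 of 29 were called, against 12.2% of all genes, and both were higher in thymus. These were Uvrag, an autophagy gene (0.67, adjusted p = 0.035), and Sh2d1a, at least 8.10-fold higher when spleen arrays below the filter value are set to it. Between CCR7- cells 1 of 29 was called, against 8.16%, and it was Sh2d1a, at least 1.53-fold higher in thymus by the same reckoning.

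**Figure D5:**
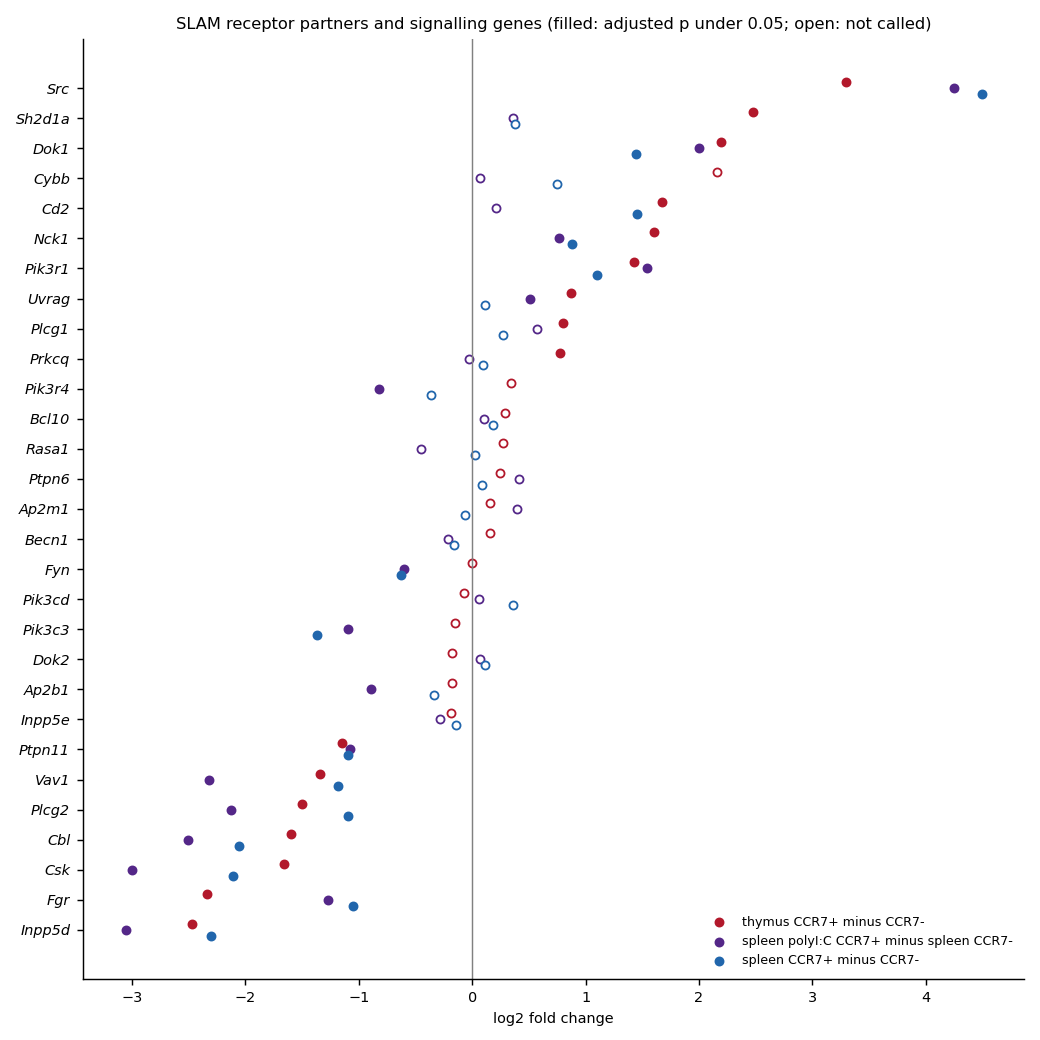
Log2 fold changes of 29 partner and signalling genes of SLAM receptors are plotted for the 3 comparisons of CCR7+ with CCR7- cells, with filled points for genes called and open points for the rest. Src lies at the right and Inpp5d at the left end in all 3, while Sh2d1a is filled in thymus only.

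Genes with a pattern over the 15 arrays most like that of a member were listed by Pearson's r, which the group differences dominate. Cd244a was most like Naaa (0.995), Ppt1 (0.985) and Cd36 (0.985), and Slamf8 most like Rab7b (0.991), Cd24a (0.991) and Alox5ap (0.985). Slamf1 was closest to Tnmd (0.980), Dkkl1 (0.966) and Tead2 (0.966). Cd84 ran closest to Mgl2 (0.971), Asns (0.970) and Tnfsf13b (0.968), and Slamf9 to Cd84, Tnfsf13b (0.954) and BC051142 (0.950). For Ly9 the leading genes were Tkt (0.974), Itgax (0.956) and Rps3 (0.939), and for Cd48 they were Ppil3 (0.980), Tfb2m (0.980) and Ankrd10 (0.976). Slamf6 led to Ddb2 (0.968), Osbpl1a (0.946) and Nenf (0.937), and Slamf7 to Hscb (0.938), Jmy (0.923) and Kif13a (0.903). Slamf8 had 271 genes with r above 0.9 and Slamf7 had 3. Between members, Slamf1 ran against Cd244a (r = -0.864) and Slamf8 (r = -0.852), and Cd48 ran with Slamf7 (r = 0.818).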

How the data were processed

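Affymetrix mouse expression arrays were hybridised with amplified RNA of sorted DCs. The deposited values are log2 signals per probe set that the authors made with RMA and the affy package, per the submitters' processing notes, and neither versions nor the set of arrays normalised together is given in the sources used here. RMA gives no detection call and compresses changes of dim genes. Array medians ran from 4.86 to 5.00, and 3 arrays a group limit the precision.

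Of 45101 probe sets, 34958 carried 1 symbol (932 several, 9211 not listed), brought up to date through gene identifiers. Each of 18194 genes took its probe set of highest mean, and 13629 genes above the 40th percentile of all values (4.39) on at least 3 arrays were tested. A model of 5 group means was fitted to all arrays with limma 3.58.1 in R 4.3.3 (eBayes, 10 residual and 4.01 prior degrees of freedom), with Benjamini-Hochberg adjustment over all genes and a call at an adjusted p under 0.05. The model was tested on simulated data. Each change is a log2 difference of group means, with CCR7+ over CCR7-, polyI:C over untreated, and thymus over spleen. Members, lists and tests were chosen with earlier results of these data known, the falls of Cd244a and Slamf8 among them. The genes named were all 9 members, fixed partner genes with the largest called rise and fall of their list, and 3 genes per member by likeness. Marker lists were averaged as log2 signals per array. Alternatives were other filters, probe set choices, normalisations, variance models, weights per array, a model holding just the groups being compared, a block for the replicate number, and leaving out each array.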

Additional observations from a re-analysis of the deposited data

Results flagged for a closer look

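The maturation change differed between thymus and untreated spleen, by the interaction term of the limma model, for 4 genes. For Cd244a the thymic change minus the spleen change was -4.34 on the log2 scale, and the dimmer of its 2 probe sets gave -0.23. That dimmer probe set averaged below the filter value in thymus CCR7+ cells. The difference was -3.20 for Cd84, whose spleen CCR7- arrays were all below the filter value, so that no fall there could have been seen. Slamf1 had 2.49, and T cell markers were higher in the same thymic cells. Slamf9 had -0.99, a call that 6 of the 15 settings leaving out 1 array did not keep. The 15 include the polyI:C arrays, which are not part of this comparison. The Slamf9 call was also lost when quantile normalisation was repeated (-1.07).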

How the results depend on the processing

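No gene's called direction was reversed by any alternative. Over 686 gene changes under another filter, probe set choice, normalisation or model, 670 kept their side of the threshold, 4 lost a call and 12 gained one. When single arrays were left out 922 of 945 kept it, 17 lost and 6 gained a call. The 945 include comparisons that do not use the array left out, where little beyond the shared variance can move. The share that kept its side therefore overstates how far leaving out an array was a test. With single arrays left out, the number of the 9 genes called ran from 6 to 7 in thymus, 3 to 4 in untreated spleen, 6 to 7 after polyI:C against CCR7- cells, 4 to 5 for polyI:C against untreated CCR7+ cells, and 3 to 5 for the difference between tissues, and stayed at 7 and 2 between mature and immature cells of the tissues. In a model holding just the groups being compared, 4 genes were called between immature cells instead of 2, with Cd244a (-0.66, adjusted p = 0.027) and Slamf6 (0.68, adjusted p = 0.016) added, and Slamf9 between mature cells was lost (0.78, adjusted p = 0.054). Slamf9's difference between tissues was lost when quantile normalisation was repeated (-1.07, adjusted p = 0.051). Under that setting those of Slamf8 (-2.74, adjusted p = 0.044) and Ly9 (-1.27, adjusted p = 0.024) were called. Slamf8 (after polyI:C against untreated CCR7+ cells, -1.76, and for the difference between tissues, -2.82) was called with array weights. Ly9 was called with them too for the difference between tissues (-1.18, adjusted p = 0.033). Leaving out both spleen CCR7+ array 1 and polyI:C array 3, chosen after seeing the data, changed 6 of 63 calls. Slamf7 has no probe set when those ending in _s_at, _x_at or _a_at are left out. The labels do not say what the replicate numbers mark, and the arrays were not treated as paired. Deviations from group means correlated above 0.1 in 13 of 30 pairs with the same number (mean r = 0.087). The same held for 21 of 60 pairs with different numbers (mean r = -0.043). As a hint from the data and not from the design, the mean correlation of these deviations was compared for each array. For 13 of 15 arrays it was higher with arrays of the same number than with all others pooled, across the other groups. With the replicate block the calls were the same in every case but Ly9, whose difference between tissues of -1.14 was called (adjusted p = 0.033). An exact test of 3 arrays against 3 cannot go below p = 0.1.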

Other observations

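By the order of genes in the RefSeq table, all 9 members lie on mouse chromosome 1, with Cd244a, Ly9, Slamf7, Cd48, Slamf1, Cd84 and Slamf6 in 1 cluster and Slamf9 and Slamf8 apart from it. Neighbours in the cluster did not change alike. In thymus CCR7+ cells Cd48 was not called, Slamf1 rose and Cd84, next to Slamf1, fell. No gene other than the 7 members was tested within the cluster. Within 200 kb of Slamf8 or Slamf9, 6 other genes were tested, and 2 were called in thymus, 3 in untreated spleen and 3 after polyI:C. All genes tested were called in 37.3%, 36.5% and 46.4% of cases, so that these counts are near the share of all genes. Tagln2, an actin-binding protein gene, was called in all 3 comparisons with CCR7- cells and was higher in each (0.75, 0.94 and 1.20), whereas Slamf8 on the same stretch was lower.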
